A study of Mus musculus with 6 samples.

Results

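The circadian clock genes described here were 10 genes chosen by name: Clock, Arntl, Per1, Per2, Per3, Cry1, Cry2, Nr1d1, Nr1d2 and Dbp. All 10 were found by gene symbol among the 23955 genes of the deposited files, and all 10 had enough reads to be tested. The mRNA measured was that bound to astrocyte ribosomes, with 3 libraries of diencephalon and 3 of cortical grey matter. The adult C57BL/6 mice were 3 months old, of both sexes, and for both regions had the genotype Slc1a3 +/- GFP+ Rpl22HA fl/fl, with a CAG-cat,-EGFP reporter transgene. Tamoxifen, given by gavage 3 times 48 hours apart from 9 weeks of age, activated a Cre recombinase expressed from Slc1a3, a glutamate transporter gene of astrocytes, and so put a haemagglutinin tag on the ribosomal protein Rpl22. The tag therefore marks the cells in which that locus is active, and RNA of other cells can be carried along. Each library pooled 3 mice. Diencephalon was taken without the tissue near the third ventricle, and cortical grey matter without meninges and white matter. The time of day at which tissue was taken is not given in the sources used here.

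The mammalian clock is a feedback loop of transcription with a period of about a day. The proteins CLOCK and ARNTL (also called BMAL1) form a pair that binds E-box sequences and switches on the Per and Cry genes, whose proteins return to the nucleus and block that pair. In a further loop the nuclear receptors NR1D1 and NR1D2 (REV-ERB alpha and beta) repress Arntl, while ROR receptors activate it. Dbp, a transcription factor of the PAR-bZIP family, is a direct target of the pair and passes the rhythm to other genes through D-box sequences. The master clock of the mouse lies in the suprachiasmatic nucleus of the hypothalamus, a part of the diencephalon, and astrocytes throughout the brain carry the same molecular loop.

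Library totals ran from 1840344 to 2078793 expected counts in diencephalon and from 1733145 to 2334237 in cortical grey matter. Of 15 astrocyte markers listed, all were detected in both regions, with a sum of 19580 to 22888 CPM (counts scaled to library size and normalised by TMM) in diencephalon and 28575 to 35767 CPM in cortical grey matter. Of the 15, 5 had a higher mean in diencephalon. Diencephalon replicate 2 and cortical grey matter replicate 3 stood apart by their Y-linked genes, at 8.44 and 0 CPM, against 145 to 166 CPM in the other 4 libraries. The female-specific RNA Xist was at 43.8 and 137 CPM in these libraries, against 0 to 4.21 CPM in the other 4. Other cell types differed too: summed oligodendrocyte markers were 1734 to 2317 CPM in diencephalon and 794 to 1018 CPM in cortical grey matter, and meningeal and fibroblast markers 824 to 1238 CPM and 4433 to 8088 CPM. Their part in the clock gene results was not tested. Cortical grey matter replicate 3 also differed most from its group, where chi-square over its degrees of freedom was 7.39 and 6.31, and 2.70 for the other cortical pair. In pooled tissue, fewer cells of a type and less RNA per cell cannot be told apart.

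Most of the core clock genes did not pass the test between regions. Clock was higher and Dbp lower in diencephalon, and the other 8 did not pass (quasi-likelihood test of edgeR; p adjusted by Benjamini-Hochberg over 10568 genes, threshold 0.05). In the same comparison 29.6% of all genes tested passed, 14.9% as higher and 14.8% as lower, so 2 of 10 is not a share above that of other genes. At an unadjusted p under 0.05 there were 3, the additional one being Cry2. No member was shown to change beyond 1.5-fold (edgeR glmTreat, 0 at an adjusted and 0 at an unadjusted p under 0.05), against 9.99% of all genes, 4.58% higher and 5.41% lower. For 5 of the 10 the regions' libraries were fully apart, against 42.6% of all genes, 21.8% higher and 20.8% lower: Clock, which was higher in diencephalon, and Per2, Cry2, Nr1d1 and Dbp, which were lower there. The median log2 difference was 0.04 over the 10 members and 0.01 over all genes tested.

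**Figure D1:**
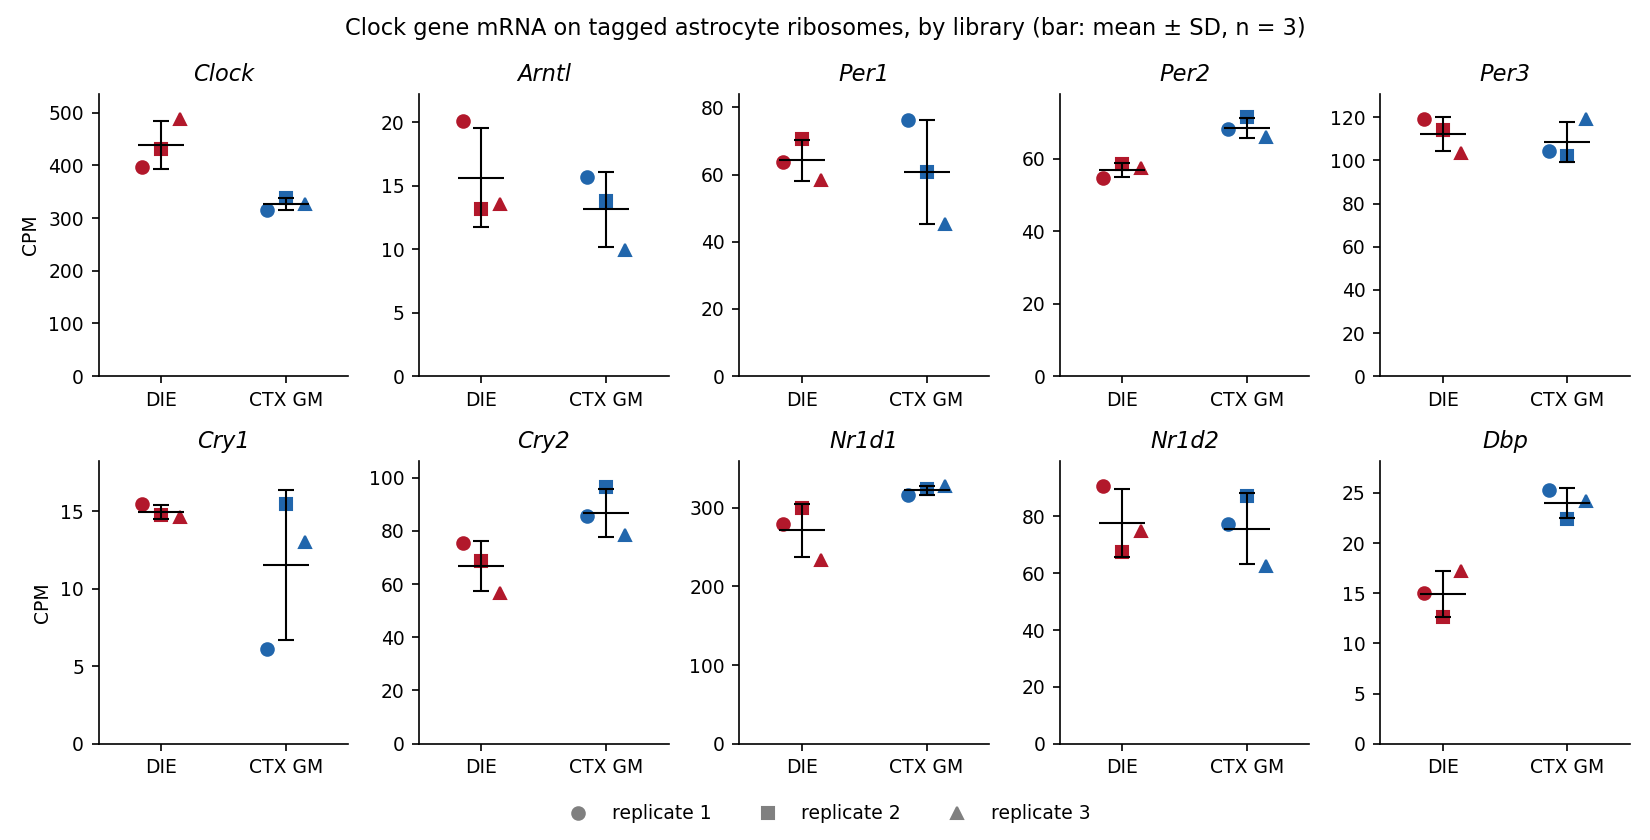
Level of each clock gene in CPM (vertical axes, each from 0) in the 3 libraries of diencephalon (DIE, left) and the 3 of cortical grey matter (CTX GM, right). Points are libraries and bars the mean ± SD. The libraries of the regions are apart for Clock, Per2, Cry2, Nr1d1 and Dbp, and overlap for the other 5 genes.

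Clock encodes the DNA-binding partner of ARNTL that also acetylates histones. Its level was 397, 432 and 488 CPM in diencephalon replicates 1 to 3, and 316, 338 and 326 CPM in cortical grey matter replicates 1 to 3. Every diencephalic library was above every cortical one. The difference was 1.34-fold (log2 difference 0.43 ± 0.12 SE, 95% interval 0.17 to 0.68, edgeR adjusted p = 0.0114). The edgeR call was lost without diencephalon replicate 3, the highest library (adjusted p = 0.0829), when the first cortical library was left out (0.0517), and when the trend of differences on gene length was removed, which moved the log2 difference to 0.29 (0.0868; range over 18 alternatives 0.00377 to 0.0868). Clock has the longest transcript of the 10, at 9744 to 9765 bases, where the fitted trend over all genes was 0.14.

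The RefSeq promoter table holds 3 start sites for Clock and 1 for Dbp, and 1 window of each is shown because these are the 2 genes that passed. A window runs from 250 bases before a start site to 50 after it, in GRCm38.p6. Each was searched on both strands for 5 motifs of the clock: the E-box CACGTG, the E-prime box CACGTT, the D-box TTATGTAA, the ROR element core TAGGTCA and the cAMP response element TGACGTCA. None of these was found in the windows of either gene, so both are in lower case throughout. The most upstream window of Clock lies on the minus strand at chr5:76304743-76305042, and that of Dbp on the plus strand at chr7:45704997-45705296.
Clock: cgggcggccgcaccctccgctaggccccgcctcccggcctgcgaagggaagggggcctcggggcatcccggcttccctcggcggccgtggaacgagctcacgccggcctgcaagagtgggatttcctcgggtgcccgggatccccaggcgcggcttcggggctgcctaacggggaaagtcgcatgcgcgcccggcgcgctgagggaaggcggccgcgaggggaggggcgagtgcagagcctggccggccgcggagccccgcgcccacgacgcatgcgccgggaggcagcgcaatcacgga
Dbp: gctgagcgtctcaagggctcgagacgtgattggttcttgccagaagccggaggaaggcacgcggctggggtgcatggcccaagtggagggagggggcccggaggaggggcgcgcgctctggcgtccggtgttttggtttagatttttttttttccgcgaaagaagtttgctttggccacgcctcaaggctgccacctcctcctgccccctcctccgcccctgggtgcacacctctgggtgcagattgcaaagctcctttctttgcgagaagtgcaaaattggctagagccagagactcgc
The E-boxes known to bind CLOCK at Dbp include ones in its introns, which are outside this window. Cry1 is shown beside them as the member whose window holds both an E-box and an E-prime box, in capitals, the E-prime box being read as AACGTG on this strand. Its window lies on the minus strand at chr10:85185005-85185304.
Cry1: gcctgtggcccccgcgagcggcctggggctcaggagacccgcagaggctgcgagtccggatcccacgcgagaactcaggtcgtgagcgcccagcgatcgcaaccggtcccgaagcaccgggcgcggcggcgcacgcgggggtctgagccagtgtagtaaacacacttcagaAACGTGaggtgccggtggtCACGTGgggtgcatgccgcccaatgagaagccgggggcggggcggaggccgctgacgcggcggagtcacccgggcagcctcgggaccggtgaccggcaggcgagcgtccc
Of the 13 windows of the 9 members with an entry, 2 held the E-box (in Per1 and Cry1), 3 the E-prime box (Cry1, Cry2 and Nr1d1), 1 the D-box (Per3), 1 the ROR element core (Arntl) and 0 the cAMP response element. Of all 32851 windows of this length, 7.15% held the E-box, 4.68% the E-prime box, 0.938% the D-box, 2.61% the ROR element core and 1.79% the cAMP response element. Such a match describes letters only.

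Arntl, the partner of CLOCK, was among the lowest of the 10. It had 43, 25 and 26 counts in the diencephalic libraries and 36, 26 and 16 in the cortical ones, or 20.1, 13.2 and 13.6 CPM against 15.7, 13.8 and 9.94 CPM. The ranges overlapped, and the log2 difference of 0.24 ± 0.30 SE did not pass (edgeR adjusted p = 0.593). Its 95% interval, from -0.38 to 0.85, leaves room for a change in either direction. Npas2 encodes a paralog of CLOCK that can take its place beside ARNTL and that is known from forebrain neurons. Unlike Clock, it was lower in diencephalon, at 35.1, 48.5 and 42.3 CPM, against 94.2, 95.8 and 103 CPM in cortical grey matter. The regions did not overlap, and the 2.33-fold difference passed (log2 difference -1.22 ± 0.17 SE, edgeR adjusted p = 6.24e-06) and also in all 18 alternatives. Within each library the TPM of Clock (the deposited transcript abundance, which divides by transcript length) was 4.72, 3.72 and 4.81 times that of Npas2 in diencephalon and 1.40, 1.47 and 1.32 times in cortical grey matter. That ratio was looked at after the levels of both genes were known, and was not tested. Of the cortical excitatory neuron markers, 7 of 7 tested fell in diencephalon in these libraries, their sum being 638 to 984 CPM in diencephalon and 4842 to 5694 CPM in cortical grey matter, and Emx1 had no count in either region. The part of these cells in the difference of Npas2 was not tested.

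Of the repressors, the 3 Period genes encode the proteins that carry CRY into the nucleus. Per1, which is also induced quickly by cAMP signals, was at 63.6, 70.7 and 58.5 CPM in diencephalon and 76.4, 60.7 and 45.3 CPM in cortical grey matter. The diencephalic libraries lay inside the cortical range, and the log2 difference was 0.07 ± 0.18 SE (edgeR adjusted p = 0.823). Its sign was not stable: it ran from -0.17 to 0.31 over the alternatives, with none passing. Per2 was the evenest of the 3 within a region, at 54.7, 58.5 and 57.5 CPM against 68.1, 71.3 and 65.8 CPM. All 3 diencephalic libraries were below all 3 cortical ones, yet the log2 difference of -0.27 ± 0.16 SE did not pass (edgeR adjusted p = 0.221, interval -0.60 to 0.06). On the TPM scale its means were 36.6 ± 1.75 and 38.3 ± 0.967 (SD, n = 3 each), where the libraries overlapped. Per3, which is known to be dispensable for the core rhythm in mice, was at 119, 114 and 103 CPM against 104, 102 and 119 CPM. These ranges were nearly the same, with a log2 difference of 0.05 ± 0.14 SE (edgeR adjusted p = 0.811, interval -0.23 to 0.33).

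The cryptochromes Cry1 and Cry2 encode the strongest repressors of the loop and are close paralogs. Cry1 rested on few reads, with 33, 28 and 28 counts in the diencephalic libraries and 14, 29 and 21 in the cortical ones. This gave 15.4, 14.8 and 14.6 CPM in diencephalon and 6.11, 15.4 and 13.0 CPM in cortical grey matter, where replicate 1 was the low one. The log2 difference of 0.40 ± 0.33 SE did not pass (edgeR adjusted p = 0.388), and it was 0.06 once that library was left out. Cry2 was at 75.3, 68.5 and 56.4 CPM in diencephalon and 85.5, 96.4 and 78.3 CPM in cortical grey matter. The lowest cortical library was just above the highest diencephalic one. Cry2 shares 149 exonic bases with D930015M05Rik on the opposite strand. Its log2 difference of -0.38 ± 0.16 SE did not pass (edgeR adjusted p = 0.0801), but it did once the third cortical library was left out (0.0357) and with the length trend removed (0.0308; range over alternatives 0.0308 to 0.492). Within a library, the TPM ratio of Cry1 to Cry2 was 0.276, 0.290 and 0.350 in diencephalon and 0.0962, 0.216 and 0.225 in cortical grey matter. The regions did not overlap, with an exact two-sided permutation p of 0.10, the smallest that 3 against 3 libraries can give. Over the 9 ratios computed the adjusted p was 0.30. The log2 difference of this ratio was 0.86, and 0.46 without the low cortical library, replicate 1.

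The nuclear receptor genes Nr1d1 and Nr1d2 encode the repressors of Arntl, which also bind haem. Nr1d1 was at 279, 300.03 and 234 CPM in diencephalon and 316, 324 and 327 CPM in cortical grey matter. The cortical libraries were within 1.04-fold of each other and above all diencephalic ones, which spread 1.28-fold. The log2 difference of -0.25 ± 0.12 SE did not pass (edgeR adjusted p = 0.143). Nr1d1 shares 263 exonic bases with Thra, a thyroid hormone receptor gene on the opposite strand in the GRCm38 annotation, and a strand setting is not given in the sources used here. Thra was at 121 ± 6.33 CPM in diencephalon and 158 ± 22.7 CPM in cortical grey matter (SD, n = 3 each; edgeR adjusted p = 0.0375). The expected counts of both genes were whole numbers in all 6 libraries. Nr1d2 was at 90.8, 67.5 and 74.7 CPM against 77.2, 87.3 and 62.7 CPM. Its regions overlapped almost fully, with a log2 difference of 0.03 ± 0.17 SE (edgeR adjusted p = 0.902, interval -0.31 to 0.38).

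The opponents of these receptors at Arntl are the ROR genes, and they split between the regions. Rora was at 786, 746 and 785 CPM in diencephalon and 372, 320 and 327 CPM in cortical grey matter. It was 2.27-fold higher in diencephalon (log2 difference 1.18 ± 0.12 SE, edgeR adjusted p = 1.87e-07). Rorb, known from sensory cortex and the retina, was at 322, 329 and 290 CPM in diencephalon and 459, 532 and 557 CPM in cortical grey matter. It was 1.64-fold lower in diencephalon (log2 difference -0.72 ± 0.12 SE, edgeR adjusted p = 0.000132). Both calls held in all 18 alternatives, and neither gene's libraries overlapped between regions. The TPM of Rora was 2.01, 1.89 and 2.25 times that of Rorb in the diencephalic libraries and 0.664, 0.491 and 0.490 times in the cortical ones, a ratio looked at after the levels were known.

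Dbp, the output gene of the loop, had the largest log2 difference of the 10 in the edgeR fit. It was at 14.97, 12.7 and 17.2 CPM in diencephalon and 25.3, 22.4 and 24.2 CPM in cortical grey matter, from 32, 24 and 33 counts against 58, 42 and 39. Every diencephalic library was below every cortical one. Dbp was 1.60-fold lower in diencephalon (log2 difference -0.68 ± 0.25 SE, interval -1.19 to -0.16, edgeR adjusted p = 0.0429). This call was close to the threshold: it was lost without any 1 of the 6 libraries (adjusted p = 0.0541 to 0.152), with DESeq2 (0.153), with no count filter (0.0603), with a replicate block (0.0530), with the length trend removed (0.111), without the pair of libraries low in Y-linked genes (0.159), and on the TPM scale (0.0882 to 0.105; range over alternatives 0.0358 to 0.159). The direction was the same in all 18. Dbp shares 539 exonic bases with Sphk2, a sphingosine kinase gene on the opposite strand. The expected counts of Dbp were not whole numbers in any of the 6 libraries. Whether reads were shared between these 2 genes was not tested. Sphk2 was at 79.8 ± 2.47 CPM in diencephalon and 79.0 ± 10.7 CPM in cortical grey matter (SD, n = 3 each). Dbp was also low against Arntl, its activator: the TPM ratio of Dbp to Arntl was 1.36, 1.75 and 2.34 in diencephalon and 2.92, 2.97 and 4.45 in cortical grey matter. These did not overlap (exact two-sided permutation p = 0.10, adjusted over 9 ratios 0.30).

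**Figure D2:**
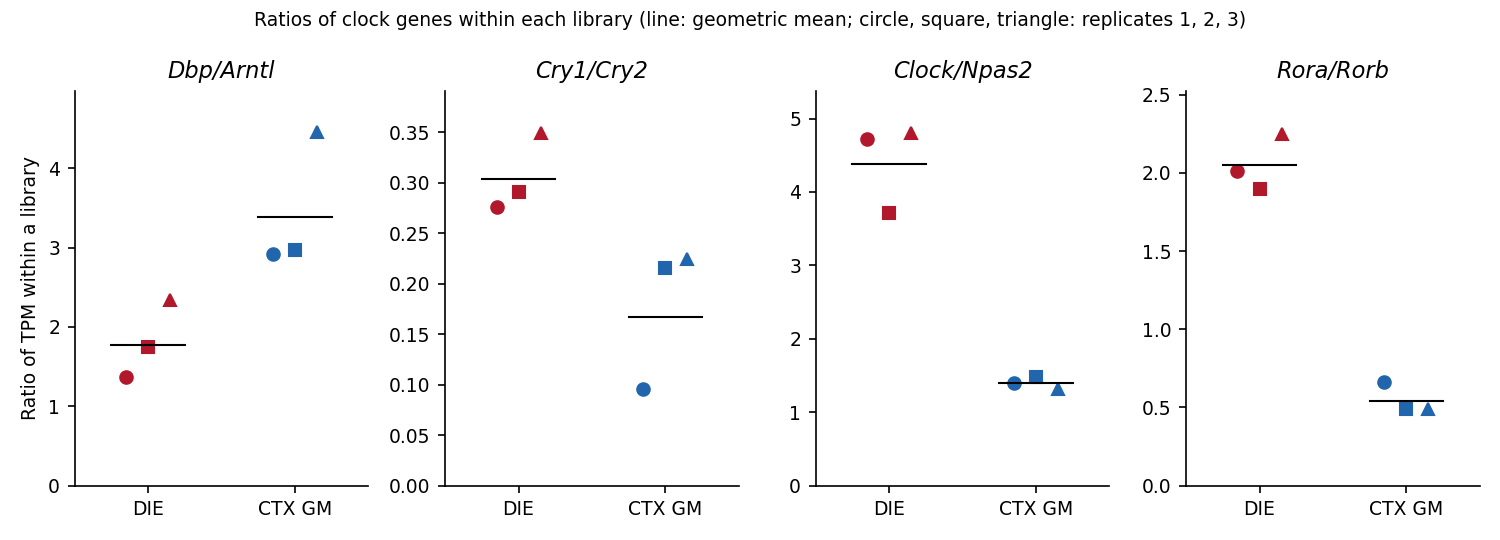
Ratio of the TPM of 2 genes within each library (vertical axes, from 0) in diencephalon (DIE, left) and cortical grey matter (CTX GM, right), with the geometric mean as a line. Dbp over Arntl is lower in all 3 diencephalic libraries, and Cry1 over Cry2, Clock over Npas2 and Rora over Rorb are higher.

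The other 7 of these 9 ratios overlapped between the regions. Geometric means in diencephalon and cortical grey matter were 1.43 and 1.10 for Per1 to Per2, 1.91 and 1.54 for Per3 to Per2, 6.04 and 7.41 for Nr1d1 to Nr1d2, and 8.11 and 7.20 for Clock to Arntl. For targets of the pair against Arntl they were 18.6 and 26.3 for Nr1d1 and 1.79 and 2.55 for Per2. The ratio of Dbp to Nfil3, which encodes a repressor at D-boxes, was 10.4 and 34.9, but Nfil3 had only 1 to 8 counts in a library. Exact permutation p-values of these 7 ratios ran from 0.20 to 0.80. Among ratios looked at after the levels were known, and not tested, Tef to Dbp was 1.26, 1.35 and 1.15 in diencephalon and 0.712, 0.990 and 0.694 in cortical grey matter, without overlap. Hlf to Dbp overlapped, at 8.20, 8.23 and 5.38 in diencephalon and 5.62, 5.66 and 6.12 in cortical grey matter.

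Ordered by TPM, the 10 genes stood in nearly the same order in both regions. Nr1d1 was highest, at 382 ± 46.8 TPM in diencephalon and 395 ± 8.73 TPM in cortical grey matter (SD, n = 3 each). Clock followed, at 167 ± 19.4 and 108 ± 1.86 TPM. Both stood clear of the next gene in both regions. A middle group held Per3 at 70.2 ± 4.31 and 59.1 ± 5.73 TPM, Cry2 at 63.6 ± 8.40 and 71.8 ± 6.33 TPM, Nr1d2 at 63.3 ± 8.83 and 53.7 ± 7.998 TPM, and Per1 at 52.4 ± 5.10 and 43.1 ± 11.2 TPM. Neighbours within this group overlapped in both regions. Dbp was at 36.7 ± 5.96 and 50.8 ± 3.73 TPM. It overlapped Per2 in diencephalon, and Nr1d2 and Per1, its neighbours in the order, in cortical grey matter. Arntl at 20.8 ± 4.86 and 15.3 ± 3.43 TPM and Cry1 at 19.2 ± 0.275 and 12.8 ± 5.24 TPM were lowest and overlapped each other in both regions. On this scale the median of all genes was at a log2 difference of 0.21, so a change in TPM is read against that value. Relative to it, Clock was at 0.41 and Dbp at -0.68.

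**Figure D3:**
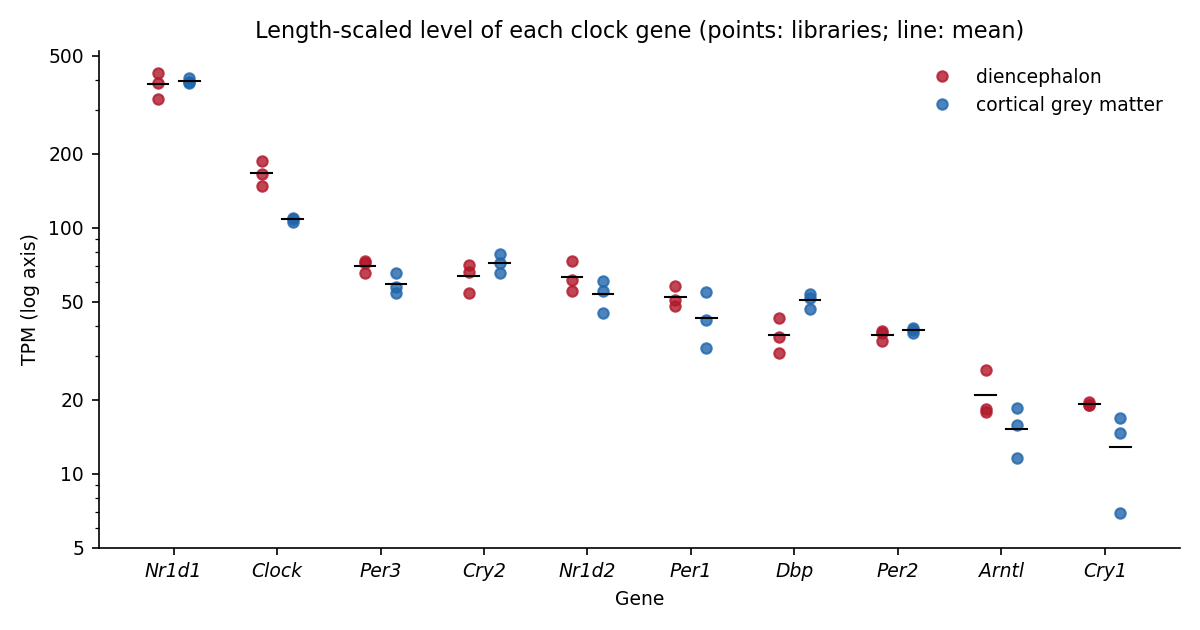
TPM of each clock gene (vertical log axis) in the 3 libraries of diencephalon (left of each pair) and the 3 of cortical grey matter (right), with means as lines. Nr1d1 and Clock are highest in both regions, and Arntl and Cry1 lowest.

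The spread between libraries of a region differed among the members. The coefficient of variation of CPM ran from 2.89% for Cry1 to 24.9% for Arntl in diencephalon, and from 1.82% for Nr1d1 to 42.0% for Cry1 in cortical grey matter. For 7 of 10 genes in diencephalon and 6 of 10 in cortical grey matter it was above what counting alone would give at that depth, as it was for 63.9% and 69.1% of all tested genes in diencephalon and cortical grey matter. Per1 was at 25.5% in cortical grey matter against 9.10% from counting, and Nr1d2 at 16.3% against 8.24%. Cortical grey matter replicate 3 was the lowest cortical library for 5 of the 10 genes (Arntl, Per1, Per2, Cry2 and Nr1d2) and the highest for Per3 and Nr1d1. No library was at one extreme of its group for all of the genes.

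By Euclidean distance between log2 CPM profiles centred over the 6 libraries, the tested genes most like Clock were Wwp1 (distance 0.0667), Asb3 (0.0998) and Ireb2 (0.101). Those most like Dbp were Mcts2 (0.0550), Yaf2 (0.162) and Hmox1 (0.172). With 6 libraries and 10568 genes, a short distance is a description of these libraries.

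Around the core loop, 44 accessory clock genes from a list were in the files and 32 were tested. Of these, 8 were higher and 6 lower in diencephalon, and 18 did not pass, against 14.9% higher and 14.8% lower of all genes tested. Among the 8 were the 6 tested genes of the suprachiasmatic list, of which Vipr2 and Lhx1 passed the count filter through diencephalon and had to be higher there. Syt10 of that list, and Fbxl21, passed the filter through diencephalon too. Their counts fell short in cortical grey matter replicate 2 (6 for Syt10) and replicate 3 (7 for Fbxl21). Without that list, 2 of 26 were higher and 6 lower. The median log2 difference of these 26 was -0.08, against 0.01 over all genes tested. The 2 higher genes were Rora and Fbxl21, and the 6 lower genes Npas2, Rorb, Hlf, Usp2, Wee1 and Por.

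**Figure D4:**
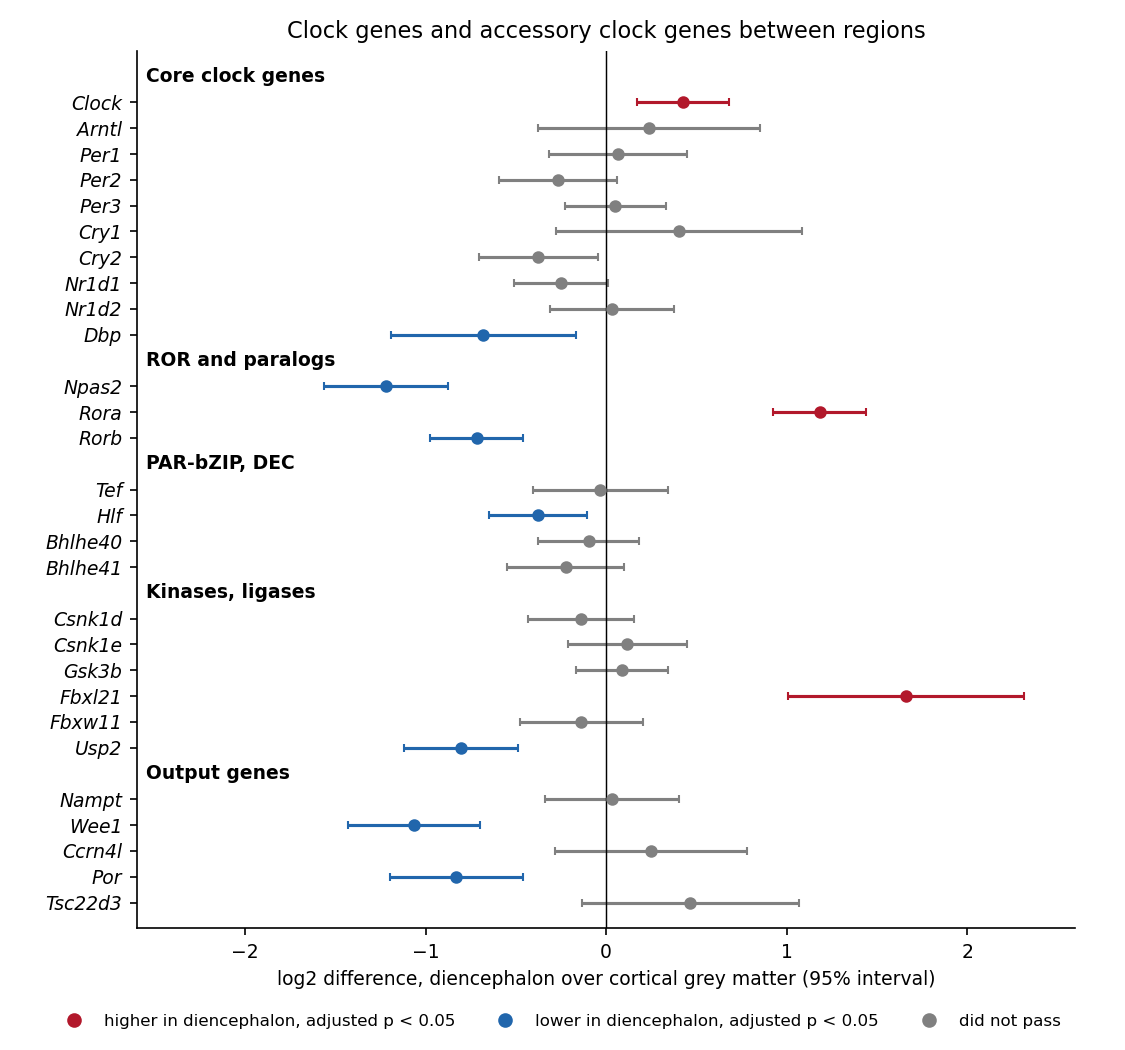
The log2 difference of diencephalon over cortical grey matter (horizontal axis) with its 95% interval for the 10 core genes and for 18 tested accessory genes named in the text, coloured by call. Clock, Rora and Fbxl21 are higher in diencephalon, Dbp, Npas2, Rorb, Hlf, Usp2, Wee1 and Por are lower, and the others did not pass.

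Of the relatives of Dbp, Hlf was at 452, 382 and 344 CPM in diencephalon and 519, 468 and 545 CPM in cortical grey matter. Like Dbp it was lower in diencephalon, 1.30-fold (edgeR adjusted p = 0.0326). It was a call lost on the TPM scale (0.372 to 0.412) when diencephalon replicate 2 or 3 or the first cortical library was left out (0.111, 0.183 and 0.0735), and without both libraries low in Y-linked genes (0.0995). Tef, the remaining PAR-bZIP gene, was at 49.7 ± 4.04 CPM in diencephalon and 50.8 ± 7.83 CPM in cortical grey matter (SD, n = 3 each; edgeR adjusted p = 0.918). Bhlhe40 and Bhlhe41 encode DEC proteins, which compete with the CLOCK pair for E-boxes. They had log2 differences of -0.10 ± 0.14 and -0.22 ± 0.16 (SE), which did not pass.

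Among 14 genes for kinases, phosphatases, ubiquitin ligases and other modifiers of clock proteins, 2 passed, against 29.6% of all genes tested, and 12 did not. Gsk3b, a kinase gene whose product phosphorylates several clock proteins, had the highest level of the 12, at 879 ± 19.96 CPM in diencephalon and 827 ± 47.6 CPM in cortical grey matter (SD, n = 3 each; log2 difference 0.09 ± 0.12 SE). Fbxw11, a ubiquitin ligase gene whose product acts on PER, had a log2 difference of -0.14 ± 0.16 (SE). The 12 also included the casein kinase genes Csnk1d and Csnk1e, whose products mark PER for degradation, with log2 differences of -0.14 ± 0.14 and 0.12 ± 0.16 (SE). Fbxl21, an F-box gene whose product slows the loss of CRY, was at 19.6, 19.5 and 18.3 CPM in diencephalon and 6.98, 6.39 and 4.35 CPM in cortical grey matter. It was 3.17-fold higher in diencephalon (edgeR adjusted p = 0.000325), and had passed the count filter through diencephalon. Usp2, a ubiquitin protease with a strong daily rhythm in many tissues, was at 71.6, 59.1 and 58.0 CPM against 97.7, 115 and 118 CPM. It was 1.74-fold lower in diencephalon (edgeR adjusted p = 0.000321). Both calls held in all 18 alternatives.

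Of 5 tested output genes, 2 were lower in diencephalon, against 14.8% of all genes tested. Wee1, a kinase gene of the cell cycle that the CLOCK pair activates in liver, was at 34.6, 34.3 and 28.7 CPM in diencephalon and 67.6, 66.5 and 70.8 CPM in cortical grey matter. It was 2.09-fold lower in diencephalon (edgeR adjusted p = 7.34e-05), in all 18 alternatives. Por, a reductase gene for cytochrome P450 enzymes, was 1.78-fold lower (edgeR adjusted p = 0.00117), a call lost on the TPM scale (0.0521 to 0.0633). Nampt, Ccrn4l and Tsc22d3 did not pass. In the same libraries the summed astrocyte markers were 1.58-fold lower in diencephalon, and 5 of the 15 had a higher mean there. By the edgeR test 7 of the 15 were called lower and 1 higher, against 14.8% and 14.9% of all genes tested. The median log2 difference of the 15 was -0.16. The part of cell composition in the output gene values was not tested.

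The list of genes known from the suprachiasmatic nucleus held 12. Its defining neuropeptide genes were at or near 0 in diencephalon: Vip, Nms and Prok2 had no count in the 3 libraries, Avp had 1 count and Grp had 2. In diencephalon 3 counts would be 1.40 to 1.58 CPM in a library. Diencephalon was taken without the tissue near the third ventricle, and whether it held the suprachiasmatic nucleus was not tested. Vip had 5, 5 and 15 counts in cortical grey matter, where it marks a class of interneurons. Six6, a homeobox gene, had 2, 0 and 2 counts in diencephalon and none in cortical grey matter, and was not tested. The remaining 6 genes were tested and were higher in diencephalon. Zfhx3, a transcription factor gene also active in thalamus, was at 1653, 2039 and 2150 CPM in diencephalon and 216, 213 and 177 CPM in cortical grey matter, 9.62-fold higher in diencephalon (edgeR adjusted p = 1.42e-12). Rgs16, a regulator of G protein signals, was 5.14-fold and Prokr2, the receptor gene for prokineticin, 4.79-fold higher. Syt10, with 34, 45 and 52 counts in the diencephalic libraries and 24, 6 and 14 in the cortical ones, was 2.92-fold higher. Vipr2, the receptor gene for VIP, had 28, 24 and 29 counts in the diencephalic libraries and 3, 5 and 1 in the cortical ones, and Lhx1 had 44, 27 and 34 against 0, 3 and 0. Of 10 subcortical neuron markers 8 had a higher mean in diencephalon, with a sum of 540 to 688 CPM against 176 to 220 CPM, and Pmch and Hcrt had no count in cortical grey matter. The part of neuronal RNA in these differences was not tested.

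**Figure D5:**
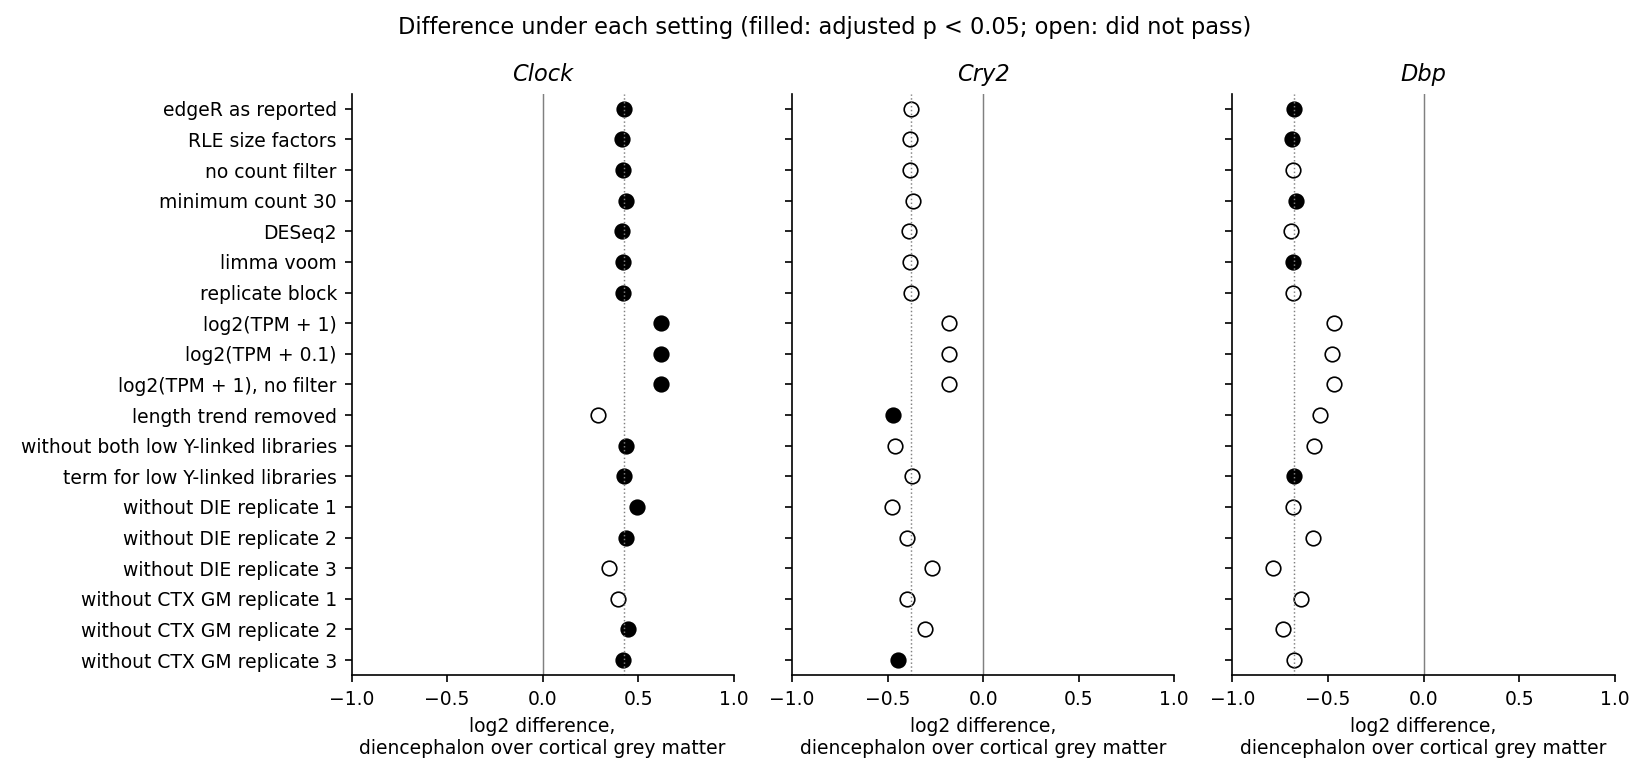
The log2 difference of diencephalon over cortical grey matter (horizontal axes) for Clock, Cry2 and Dbp under each setting (rows), filled where the adjusted p is under 0.05. Clock passes in 15 of 18 alternatives, Cry2 in 2 and Dbp in 4, and no point crosses 0.

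Across all settings the sign of the difference was the same for Clock, Per2, Cry1, Cry2, Nr1d1, Arntl and Dbp, and turned in at least 1 setting for Per1, Per3 and Nr1d2.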

How the data were processed

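Ribosome-bound mRNA was sequenced on an Ion Proton instrument after amplification of cDNA, per the labels' protocols. The submitters' processing notes name RSEM and mm9. Aligner, versions and strandedness were not given in the sources used here. The deposited expected counts are estimates of reads per gene, and the deposited TPM are scaled by effective length and to a fixed total; the deposited FPKM and the deposited gene lengths (another value per gene) were not tested, lengths serving for the trend below. Replicates are separate pools of mice per the labels. The labels mention no molecular identifiers, so the floor of 3 counts covers counting error only.

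Expected counts were rounded, filtered with filterByExpr at a minimum count of 10, scaled by TMM and fitted in edgeR 4.0.16 under R 4.3.3 by quasi-likelihood, on region alone. Adjustment was over all 10568 genes, at 0.05. SEs come from the F statistic, and 95% intervals from the t distribution of the fit. CPM use TMM library sizes. Alternatives were DESeq2 1.42.0, voom of limma 3.58.1, RLE factors, no filter or a stricter minimum of 30 counts, a replicate block, log2(TPM + 1) and log2(TPM + 0.1) with a mean TPM of at least 1 or no filter, an offset for the length trend (natural spline, 5 degrees of freedom), a term marking libraries below 50 CPM in Y-linked genes, and leaving out each library. Leaving out both such libraries, and leave-one-out and count versions of ratios, were added after seeing the data. Scripts were tested on simulated counts.

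The members and lists were chosen with earlier results of these data known. Named genes were all members, each accessory gene past the threshold, and up to 4 others a list by mean CPM; untested genes were named for their role, with values known. Of the 2 aliases Gm129 and Noct on the lists, the files carry Ciart and Ccrn4l. Promoters come from RefSeq (GRCm38.p6), overlaps from GENCODE M21 on GRCm38, not the build of the files; no coordinate of the files' build is given. Of the 10 members, 9 had a promoter entry. Some accessory genes are not reported here.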

Additional observations from a re-analysis of the deposited data

How the results depend on the processing

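Of the 10 members, 7 kept their side of the threshold in every alternative that could be fitted: Arntl, Per1, Per2, Per3, Cry1, Nr1d1 and Nr1d2. The call for Clock was lost with the length trend removed (log2 difference 0.29) and without single libraries, over which it ran from 0.34 to 0.49; that count of higher members was then 0, and 0 to 1 over libraries left out. Cry2 passed with the length trend removed (-0.47), and its log2 difference ran from -0.48 to -0.27 over libraries left out. The call for Dbp was lost with no count filter (-0.68), DESeq2 (-0.69), the replicate block (-0.69), log2(TPM + 1) with and without a filter (-0.47), log2(TPM + 0.1) (-0.48), the length trend removed (-0.54) and without both libraries of little Y-linked signal (-0.57). It ran from -0.79 to -0.58 over libraries left out. The count of lower members was 0 in the settings in which Dbp was lost, except that Cry2 took its place with the length trend removed, and 0 to 1 over libraries left out. The causes were not tested. Fewer libraries did not always give fewer calls. Over all genes 3373 were called without cortical grey matter replicate 3, against 3133 with all libraries. Without any 1 of the others 2331 to 2837 were called. The number of all genes called lower was 958, 908 and 920 on the 3 TPM settings, against 1559, while 2118, 1991 and 1978 were higher, against 1574. With the replicate block 3037 genes were called in all, against 3133. Same-numbered libraries did not deviate together (correlations of 0.06, -0.10 and 0.00), against -0.17 to 0.18 for the other pairs. With 3 libraries a region, such correlations cannot show whether any libraries share mice. With CPM, which is not divided by length, in place of TPM, 13 of 20 ranks of level shifted, by at most 2 places. Clock then stood above Nr1d1 by mean, at 439 against 271 CPM in diencephalon and 327 against 322 CPM in cortical grey matter. Differences of the 9 ratios moved by less than 1 SD, pooled over both regions, in every alternative. For libraries left out this was fixed in advance, since dropping 1 of 3 values cannot move a mean that far. It therefore says nothing about how stable the ratios are there. With the narrower diencephalic SD the differences moved further for Cry1 to Cry2 and Per1 to Per2 when cortical libraries were left out. At 14 to 58 counts a library, Arntl, Cry1 and Dbp are the least precise members.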
